A study of Homo sapiens with 4 samples.

Results

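The genes AKAP9, CDK5RAP2, CEP250, CENPF, INCENP and RAD21 encode proteins of the centrosome, the kinetochore, the inner centromere and the cohesin ring. Peaks of RNA recovered in these 6 genes were examined in pull-downs of the circular RNA circ-ZNF609 from RD cells, which are embryonal rhabdomyosarcoma cells grown as an established line. The pull-downs used an even and an odd set of biotinylated antisense probes directed at exon 2 of ZNF609, and probes against the bacterial LacZ mRNA, which human cells lack, gave the background of the procedure. Each probe set had 1 library, the cells received no other treatment named in the labels, and a sample of total lysate was not analysed here. The 6 genes were chosen by the peaks listed in their spans in these same lists. The number, place, reads and ranks of their peaks are therefore a description and carry no test. They held 24 of the 1766 listed peaks, and they are 6 of the 847 protein-coding genes with a peak in any list.

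The centrosome is the main microtubule-organising centre of animal cells and forms the poles of the mitotic spindle. Its outer layer, the pericentriolar material, is built from long coiled-coil scaffold proteins that recruit gamma-tubulin complexes, from which microtubules grow. Kinetochores attach chromosomes to those microtubules, the chromosomal passenger complex corrects faulty attachments, and cohesin holds sister chromatids together until anaphase. These are textbook roles of the proteins, and the data below concern RNA alone.

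Every peak consists of bins of 170 bases, and its strength is given as reads per bin, as deposited and without scaling to library size. The even list held 502 peaks with a median of 293 reads per bin, the odd list 542 peaks with a median of 221.5, and the LacZ list 722 peaks with a median of 115. ZNF609 had 1 even and 3 odd peaks and 0 LacZ peaks, so the targeted gene was listed with both ZNF609 probe sets. Of the muscle lineage markers DES, MYOD1 and MYOG, DES alone had peaks, and the lists give captured RNA and not expression, so the cell type could not be checked further. With 1 library per probe set no value has a replicate error, and reads per bin of different lists are set side by side without reading a difference in recovery from them. Peaks are therefore ranked by the deposited p-value within their own list, where rank 1 is the strongest.

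Even probes gave 6 of the 24 peaks in these genes, odd probes 7 and LacZ probes 11. RAD21 was the only one of the 6 listed with the even as well as the odd probes and not with LacZ probes, a class that held 4.96% of the 847 protein-coding genes with a peak. INCENP and CDK5RAP2 had more LacZ peaks than peaks of either ZNF609 probe set, CEP250 had peaks in all 3 lists, AKAP9 had an even peak alone, and CENPF an odd peak alone. Genes of those classes made up 6.97% (odd and LacZ), 5.19% (even and LacZ), 5.31% (all lists), 21.0% (even alone) and 21.5% (odd alone) of the 847. Since the genes were picked for their peaks, nothing about the group is read from these shares.

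**Figure D1:**
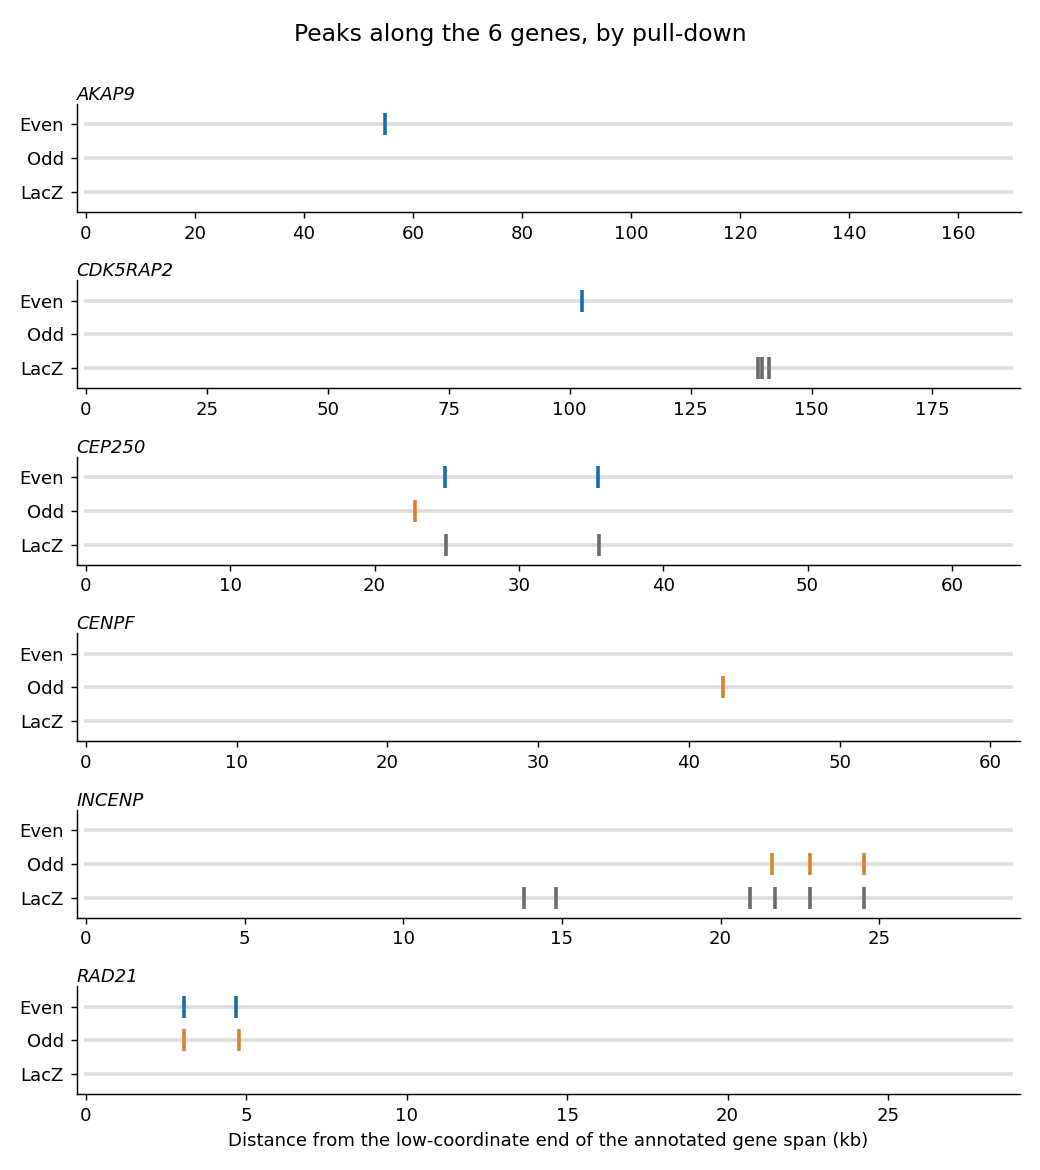
Place of every peak in the 6 genes. The horizontal axis of each panel is the distance in kb from the low-coordinate end of the annotated gene span, the rows are the even, odd and LacZ pull-downs, and each tick is the middle of a peak. Even and odd ticks line up in RAD21, each odd tick of INCENP lines up with a LacZ tick, and even and LacZ ticks line up in CEP250.

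Merging overlapping peaks of the 3 lists gave 17 separate regions in the 6 genes. Of these, 2 combined even and odd peaks without a LacZ peak, 2 combined even and LacZ peaks, 3 combined odd and LacZ peaks, and 0 combined all 3. Over all 1549 regions of the series, the matching shares were 3.49%, 2.26%, 3.16% and 2.52%. The remaining regions belonged to 1 list, with 2 even, 2 odd and 6 LacZ regions. Among all regions, those classes made up 24.1%, 25.8% and 38.7%. Counted by peak, 2 of the 6 even peaks in these genes overlapped an odd peak and 2 overlapped a LacZ peak. Over the whole even list these shares were 18.5% and 14.7%. Of the 7 odd peaks, 2 overlapped an even peak and 3 a LacZ peak, where the whole odd list had 17.3% and 16.2%. Of the 11 LacZ peaks, 2 overlapped an even and 3 an odd peak, where the whole LacZ list had 10.2% and 12.0%.

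The lists differ in how many reads a peak needed, and this bears on every gene in which a list has no peak. Column 8 of the lists holds an unnamed score of each bin, a whole multiple of a fixed step, here given in steps. Among the 826 peaks that were 1 bin wide and had a whole number of steps, the p-value followed reads and score in a fixed way. In 42 of 42 sets of such peaks from 1 list with equal reads and equal score the p-values were identical. At an equal score, p was higher for the peak with more reads in 0 of 596 neighbouring pairs, and at equal reads it was lower for the peak with the higher score in 0 of 274. A bin with a high score thus needed more reads to be listed. For each peak in the 6 genes, the lowest read number of any 1-bin peak with a score at least as high was taken in the other lists, and is called the listing floor. It is a limit in unscaled reads on a bin that has no peak, as far as all bins of a library were treated alike, which the lists cannot show. The floor also takes a bin to have the same score in every list. Peaks of the 6 genes on equal bases in different lists had equal scores. These were 6 steps with odd and LacZ probes at 62148431 in INCENP, and 20 steps with even and odd probes at 116848821 in RAD21. For bins listed once this cannot be seen. For wider peaks the mean score of their bins was used.

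**Figure D2:**
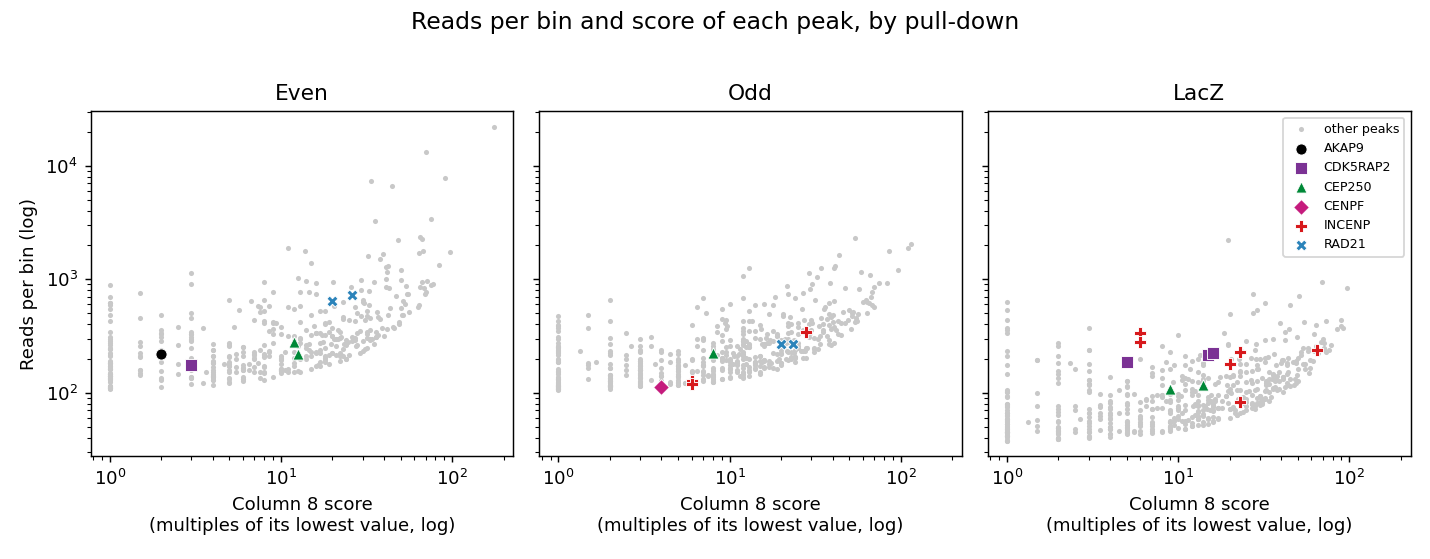
Reads per bin against the column 8 score for the peaks of the even, odd and LacZ lists, both axes logarithmic. Grey points are all other peaks without the fixed value of 0.01 in column 8, and coloured symbols are the peaks of the 6 genes. The lower edge of the grey points climbs with the score in each panel, and the CENPF peak and the weakest INCENP odd peak lie on that edge.

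The centrosomal scaffolds come first. AKAP9 (gene ID 10142, chromosome 7, 91940862 to 92110673, GRCh38) encodes a large scaffold of the centrosome and the Golgi that anchors protein kinase A and gamma-tubulin complexes. It had 1 even peak, 0 odd peaks and 0 LacZ peaks. The even peak at 91995501 to 91995840 was 2 bins wide and had 221 reads per bin, with a p-value of 0.000651 and rank 157 of 502. It lay 54639 bases downstream of the annotated gene start, with 114833 bases of the gene beyond it. Its mean score was 2 steps, and at that score the listing floor was 107 reads in the odd list and 39 reads in the LacZ list. The even value was above both floors, but the libraries are unscaled and no replicate tells whether the absence in the other lists would recur.

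CDK5RAP2 (gene ID 55755, chromosome 9, 120388875 to 120580167) encodes a pericentriolar protein that activates gamma-tubulin ring complexes and is a known microcephaly gene. Its 1 even peak at 120491241 to 120491580 had 174 reads per bin, a p-value of 0.00217 and rank 258 of 502. The odd list had 0 peaks in the gene. The LacZ list had 3 peaks within 2380 bases, which is 1.24% of the 191293 bases of the gene span. They stood at 120527791 to 120527960 with 188 reads per bin, at 120528641 to 120528810 with 217, and at 120529831 to 120530170 with 223.5. These were strong peaks of their list, at ranks 47, 60 and 59 of 722, with p-values between 3.98e-07 and 1.37e-06. The even peak and the nearest LacZ peak were separated by 36210 bases, and the gene runs on the minus strand, so the LacZ peaks lay nearer to its start.

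The even and LacZ probes thus listed CDK5RAP2 at different places. In the bin of the first LacZ peak, with a score of 5 steps, the listing floor was 122 even and 116 odd reads, below the 188 LacZ reads. In the bins of the even peak, with a mean score of 3 steps, the floor was 112 odd and 40 LacZ reads, below the 174 even reads per bin. These are unscaled reads of single libraries, so no difference in recovery is read from the floors. Of the 44 protein-coding genes with even and LacZ peaks and no odd peak, 21 likewise had no region shared by even and LacZ.

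CEP250 (gene ID 11190, chromosome 20, 35455165 to 35519280) encodes C-NAP1, the protein at the proximal ends of centrioles that anchors the fibres linking a pair of centrosomes. It had 2 even peaks, 1 odd peak and 2 LacZ peaks. The even peak at 35479851 to 35480190 had 218 reads per bin and rank 324 of 502, and the LacZ peak at 35480021 to 35480190 lay inside it with 117 reads per bin and rank 176 of 722. At 35490561 both lists had a peak from the same base, with 279 reads per bin over 170 bases in the even list, at rank 164, and 109 reads per bin over 340 bases in the LacZ list, at rank 162. The p-values of these peaks were 0.00383 and 0.000751 with even probes, and 0.000221 and 0.000163 with LacZ probes. All the even peaks of CEP250 therefore had a LacZ counterpart, and 2 of the 3 even bins were also LacZ bins.

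The odd peak of CEP250 at 35477811 to 35478150 had 224.5 reads per bin, a p-value of 0.00103 and rank 143 of 542. It ended 1700 bases before the nearest even peak and overlapped no peak of another list. At its mean score of 8 steps the listing floor was 130 reads in the even list and 45 in the LacZ list. CEP250 thus counts as a gene of all 3 lists, although 0 of its bins were shared by even and odd. All the CEP250 peaks also lie in the span of CEP250-AS1, a long noncoding RNA gene at 35471655 to 35490982. The library kits named in the labels are not described there as keeping strand, and the peaks are all listed on the plus strand, so reads of the pair cannot be told apart.

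CENPF was the single kinetochore gene of the group. It encodes a large coiled-coil protein that gathers at kinetochores in mitosis and binds microtubules, and its gene (gene ID 1063) spans chromosome 1, 214603195 to 214664571. Its peak was in the odd list alone, at 214645401 to 214645570, 1 bin wide with 112 reads. Its p-value of 0.00999 was the highest of the odd list, at rank 542 of 542, and the lists hold p-values below 0.01 alone. CENPF is thus the member just inside the limit, and no member lies just outside, because weaker bins were not in the lists. The peak had a score of 4 steps, at which the listing floor was 116 reads in the even list and 41 in the LacZ list. In unscaled reads, an even bin with as many reads as the odd bin might not have been listed. The list medians were unlike, at 293 even and 221.5 odd reads per bin, so scaling could place that bin above the even floor. Without scaling or a replicate, the absence of an even peak in CENPF does not separate the probe sets.

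INCENP (gene ID 3619, chromosome 11, 62124011 to 62153169) encodes the scaffold of the chromosomal passenger complex, which holds and activates the kinase Aurora B at the inner centromere. It had 0 even peaks, 3 odd peaks and 6 LacZ peaks. Only 3 of the 445 protein-coding genes in the LacZ list had as many as 6 peaks, INCENP among them. Its 2595 reads made up 1.18% of the LacZ reads in peaks (exact Clopper-Pearson 95% interval 1.14 to 1.23, counting error only), which put it in place 5 of those genes. In the odd list its 591 reads made up 0.212% (0.195 to 0.229) and put it in place 139 of 328.

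All of the odd INCENP peaks overlapped a LacZ peak, and the strongest of the odd peaks lay on the weakest of the 3 LacZ peaks they overlapped. The bin at 62145541 to 62145710 had 344 reads in the odd list, at rank 170, and the LacZ peak at 62145541 to 62145880 had 226.5 reads per bin, at rank 86. The bin at 62146731 to 62146900 had 128 reads in the odd list, at rank 466, and lay within the LacZ peak at 62146561 to 62147070, which had 334 reads per bin, at rank 19. The bin at 62148431 to 62148600 had 119 reads in the odd list, at rank 531 of 542, and 280 reads in the LacZ list, at rank 18 of 722 with a p-value of 1.61e-09. The odd p-values of these bins were 0.00142, 0.00768 and 0.00962. Among the 59 protein-coding genes with odd and LacZ peaks and no even peak, INCENP alone had as many as 3 regions shared by the pair, and 27 shared none.

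The even list had no INCENP peak although the floor was low in some of these bins. At the score of 6 steps of the bin at 62148431, an even bin was listed from 128 reads on, below the 280 LacZ reads found there. The 3 INCENP peaks found with LacZ probes alone stood at 62137721 to 62137890 with 83 reads per bin, at 62138571 to 62139080 with 179.7, and at 62144861 to 62145030 with 238. At the scores of these bins the floors were 198, 192 and 898 even reads and 187, 176 and 564 odd reads. The unscaled LacZ reads stood above 1 of these 6 floors, the 176 odd reads at the second peak, and there by little. The list medians were 115 LacZ, 293 even and 221.5 odd reads per bin, so scaling could lift the LacZ reads above more of these floors. Where the floor is above the LacZ reads, an even or odd bin with as many unscaled reads as the LacZ bin might not have been listed. Without scaling or replicates, these places are shown neither to differ between the probe sets nor to be alike. The INCENP peaks began between 13710 and 24420 bases from the gene start, in a span of 29159 bases.

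RAD21 (gene ID 5885, chromosome 8, 116845934 to 116874776) encodes the kleisin subunit that closes the cohesin ring and is cut by separase at anaphase. It had 2 even peaks, 2 odd peaks and 0 LacZ peaks. The even peak at 116848821 to 116849160 had 648.5 reads per bin, a p-value of 1.17e-05 and rank 46 of 502, and the odd peak on the same bases had 268 reads per bin, a p-value of 0.00193 and rank 201 of 542. The even peak at 116850521 to 116850690 had 722 reads, a p-value of 1.88e-05 and rank 54, and the odd peak at 116850521 to 116850860 had 267.5 reads per bin, a p-value of 0.00322 and rank 276. Measured against the median peak of its own list, the even peaks had 2.21 and 2.46 times as many reads per bin, and the odd peaks 1.21 and 1.21 times.

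In the bins of RAD21 a LacZ peak would have needed few reads. At the score of 20 steps of the first region the LacZ floor was 60 reads, and at the 26 steps of the even bin of the second region it was 72, against which the weakest of the 4 RAD21 peaks had 267.5 reads per bin. The libraries are unscaled, and the LacZ list had 219401 reads in peaks where the even list had 482418 and the odd list 279415. RAD21 held 0.419% (0.400 to 0.437, counting error only) of the even reads in peaks and 0.383% (0.361 to 0.407) of the odd reads in peaks. The intervals hold no error between libraries, so the even and odd shares are not compared. By its best ranks it took place 11 of the 42 protein-coding genes of its class, found with even and odd but not with LacZ probes, and it was among 11 of them with at least 2 regions shared by even and odd. A further 13 of the 42 shared none. With a p-value limit of 0.001 RAD21 kept 2 even peaks but 0 odd peaks, so neither region was then shared.

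The RAD21 peaks lay within 2040 bases near the low-coordinate end of the gene span and were 1360 bases apart. Both regions also lie in or run into LOC112268030, a long noncoding RNA gene at 116778974 to 116850588, and could not be assigned to either gene without strand. RAD21P1, an annotated pseudogene on chromosome X, carries the name of RAD21, and the sources used here do not say how reads matching more than 1 place were treated. Sequences of the peaks were not used here. In the 4 genes of the group whose strand was known, the peak nearest to the gene start began 13710 bases from it.

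**Figure D3:**
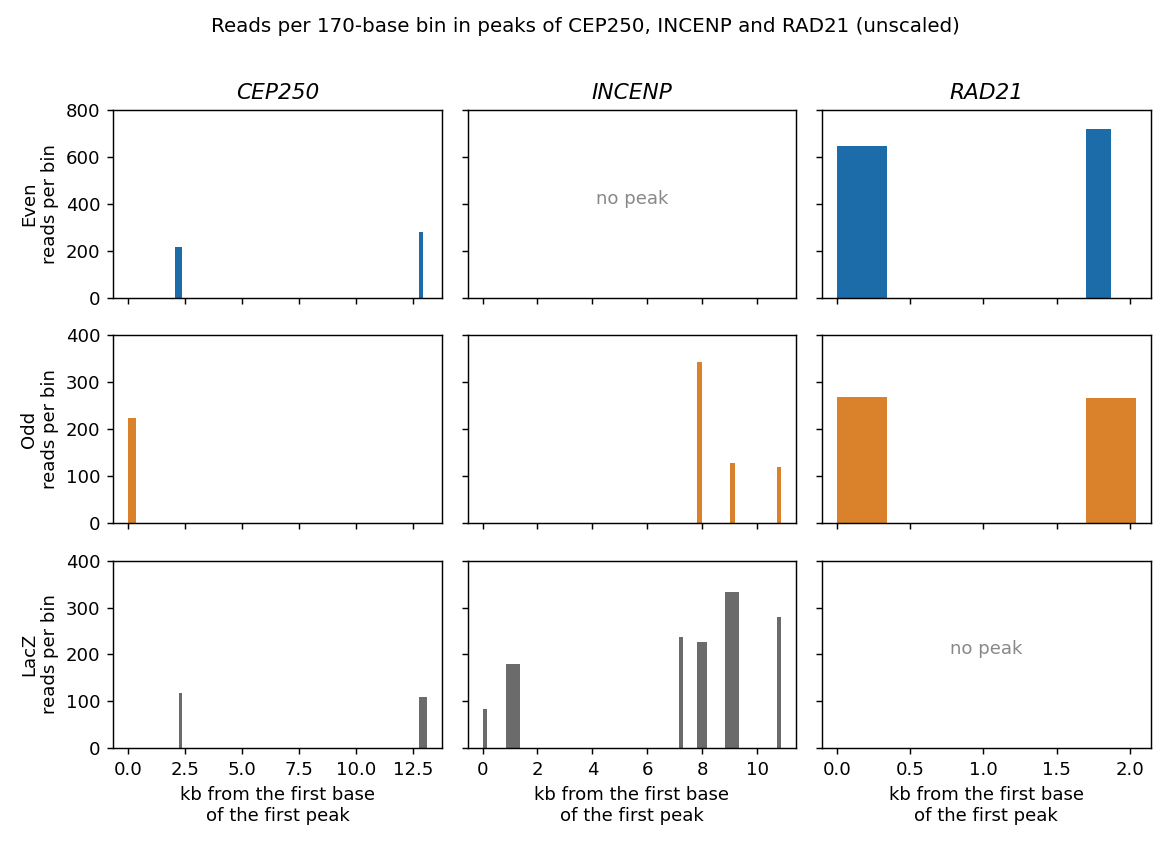
Reads per bin (vertical axis, unscaled) in the peaks of CEP250, INCENP and RAD21, with rows for the even, odd and LacZ pull-downs and the horizontal axis in kb from the first peak of the gene. Bars are as wide as the peaks, and the even row has a longer vertical axis. The RAD21 bars stand at the same places in the even and odd rows, and the odd INCENP bars at places that also have LacZ bars.

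Within the lists, the peaks of the 6 genes took different ranks. In the LacZ list, 9 of the 11 peaks had a p-value below 0.001, where 37.0% of all LacZ peaks did. The same was true of 4 of 6 even peaks, against 34.7% of the list, and of 0 of 7 odd peaks, against 25.6%. The median of these peaks was 250 reads per bin for even, 224.5 for odd and 217 for LacZ probes, where the whole lists had 293, 221.5 and 115. The 7 of them at rank 107 or better in the LacZ list lay in CDK5RAP2 and INCENP, and the 2 strongest of the even list in RAD21. The 11 LacZ peaks lay in 3 genes, and the even and the odd peaks in 4 genes each. Since the genes were picked by their peaks in these lists, nothing about the group is read from these shares, medians and ranks.

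**Figure D4:**
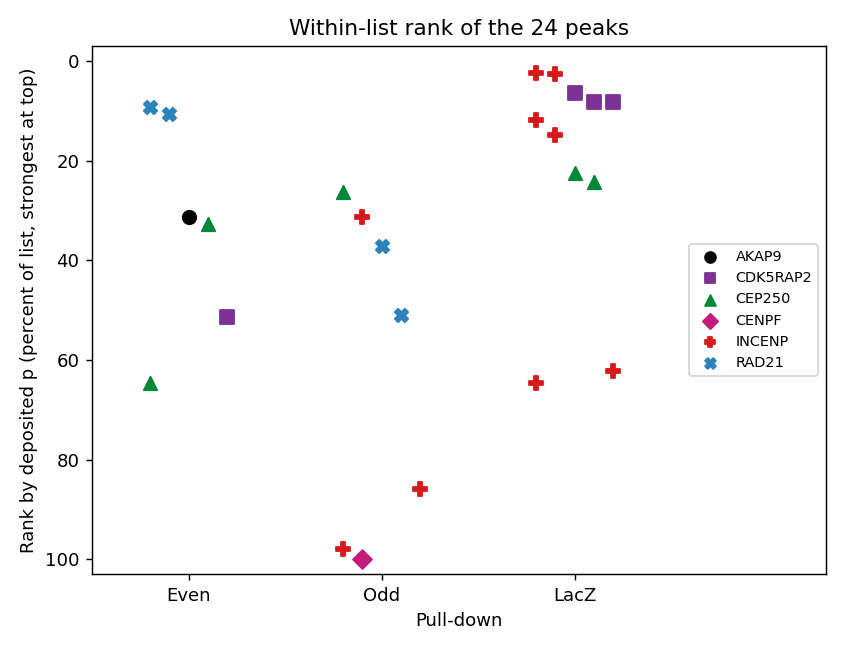
Rank of each of the 24 peaks by deposited p-value, as a percentage of the length of its list with the strongest at the top, for the even, odd and LacZ pull-downs. Symbols stand for genes. The RAD21 peaks lead in the even list, INCENP and CDK5RAP2 peaks lead in the LacZ list, and the CENPF peak closes the odd list.

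The other genes of these structures were then counted from lists of 158 annotated genes outside the 6. Peaks were found in 12 of them (7.59%), where 4.22% of all 20050 annotated protein-coding genes had a peak in any list. The gene lists were chosen with earlier results of these data known, and RNA abundance was not used, so the shares are not compared further. By structure, 5 of 69 other centrosome genes had a peak, 2 of 51 other kinetochore genes, 0 of 4 other chromosomal passenger genes, 3 of 19 other cohesin genes and regulators, and 2 of 15 condensin and related SMC genes. With the 6 genes included, 18 genes had a peak, of which 7 had even peaks, 7 odd peaks and 10 LacZ peaks. RAD21 was the 1 gene found with even and odd but not with LacZ probes. Of all 847 protein-coding genes with a peak, 309 had even, 328 odd and 445 LacZ peaks, and 4.96% were of the class of RAD21. The counts include the 6 genes picked for their peaks, so nothing about these structures is read from them.

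ODF2, which encodes a protein of the appendages of the mother centriole, had the best rank among these other genes. It had 6 odd and 3 LacZ peaks, and the odd peak from 128471211 to 128471550 on chromosome 9 had 678 reads per bin, a p-value of 6.08e-07 and rank 7 of 542. A bin of ODF2, at 128473591 to 128473760, was listed with 184 odd and 71 LacZ reads. CEP131 and the kinetochore gene KNSTRN had odd peaks alone, 2 and 3 of them, none stronger than rank 229 of 542. Genes with odd peaks alone made up 21.5% of the 847 protein-coding genes with a peak.

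The 3 other cohesin genes with a peak had LacZ peaks alone, a class that held 35.1% of the 847 protein-coding genes with a peak. SMC1A, which encodes a core subunit of the ring, had 2 LacZ peaks with 73 and 134 reads per bin, at ranks 314 and 328 of 722. PDS5B and WAPL, which encode regulators that bind the ring, had 1 LacZ peak each, with 60.5 reads per bin at rank 368 and 49 reads at rank 643. PCNT, NIN and SPC24 also had 1 LacZ peak each, between ranks 448 and 589. SMC2, a condensin subunit gene, had 2 even peaks with 136 and 135 reads, at ranks 355 and 361 of 502, and CEP55 and SMCHD1 had 1 even peak each, at ranks 351 and 229. None of these regions but the 1 bin of ODF2 was shared between lists.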

How the data were processed

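RNA from 3 pull-downs of RD cells was sequenced, and the authors deposited 1 peak list per library, so peaks were not called on pooled samples. The build was GRCh38, and the tools were STAR 2.5.2b, Trimmomatic, bcl2fastq 2.0.2, SAMtools, Picard and bedtools, per the submitters' processing notes, which give no roles or settings here. The list names give Piranha as the peak caller. The lists have no header. The signal deposited by the authors was read from its values as reads per bin of 170 bases, or the mean over joined bins, because reads per peak were whole in 100% of peaks (tolerance 0.02). All p-values deposited by the authors were below 0.01. The score deposited in column 8 is unnamed and was a whole multiple of 1/4434 (tolerance 0.005 steps) once bins at a fixed 0.01 were allowed for. Total depth is unknown.

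Peaks were assigned to every RefSeq gene span (GRCh38.p14) that they overlapped by at least 1 base, strand ignored, with Python 3.11.15, pandas 2.3.3 and scipy 1.17.1. Coordinates count from 1. Overlapping peaks were merged into regions. Strand of the gene was known for 4 of the 6 genes. The code was tested on simulated peaks. The 6 genes and the gene lists were chosen with earlier results of these data known. Named were the 6 genes, genes overlapping their peaks and list genes with a peak. The centrosome list had 1 symbol, CENPJ, absent from the gene table. A planned description of protein composition was left out because no protein sequences were used. Alternatives were a stricter p-value, lists of equal length, other overlap rules, and leaving out peaks with the fixed score.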

Additional observations from a re-analysis of the deposited data

How the results depend on the processing

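With a p-value limit of 0.001 the odd peaks in the 6 genes numbered 0 in place of 7, the regions shared by even and odd without LacZ 0 in place of 2, and the regions shared by LacZ and a ZNF609 probe set 1 in place of 5. There the even peaks numbered 4 in place of 6 and the LacZ peaks 9 in place of 11. The odd RAD21 peaks, at ranks 201 and 276, were among those lost. This limit keeps fewer peaks of each list by construction. In lists trimmed to their 502 strongest peaks the odd peaks numbered 5, CENPF lost its peak, and the regions numbered 2 and 4. Leaving out peaks with the fixed score of 0.01, or asking for at least 50% of a peak in the gene span, changed none of the 16 counts. Neither setting could change them, because no peak of the 6 genes had the fixed score and all lay wholly inside their gene spans. A reciprocal overlap of 50% gave 2 and 4 regions, and a distance of 200 bases 2 and 5. No paired analysis was possible because each probe set had 1 library. Depth limits the absences: a bin without a peak may hold any read number below the listing floor.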

Other observations

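The order of the peaks of these genes depended on the measure used to rank them. Ranked by reads per bin in place of the p-value, the AKAP9 even peak moved to place 323 of 502, where its p-value gave rank 157, and the CDK5RAP2 even peak to place 391, where its p-value gave rank 258. Their scores were 2 and 3 steps. The LacZ peak of INCENP at 62144861 moved the other way, to place 111 of 722 by reads, where its p-value gave rank 449, and its score was 65 steps. The LacZ peaks of INCENP at 62144861 and 62148431 had 238 and 280 reads, and p-values of 0.00352 and 1.61e-09, with scores of 65 and 6 steps. The sources used here do not say what the score is, so which ranking follows RNA recovery more closely was not tested.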
